A study of Mus musculus with 117 samples.

Results

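The clustered protocadherins are a family of 57 protein-coding genes, of 21631 on chromosomes 1 to 19 and X, that sit in 3 tandem arrays on mouse chromosome 18. They were chosen by position and by gene symbol alone, as the Pcdha, Pcdhb and Pcdhg genes of GRCm38, and comprise 14 alpha, 22 beta and 21 gamma genes at chr18:36930285-37841873, a locus of 911.6 kb. The data are chromatin immunoprecipitation sequencing (ChIP-seq) of 4 histone marks, H3K4me1, H3K4me3, H3K27ac and H3K27me3, in hepatocytes. All mice were females 12 weeks old, untreated as far as the labels say, and of 9 inbred strains. CAST/EiJ, PWK/PhJ and WSB/EiJ are derived from wild mice, and C57BL/6J, A/J, 129S1/SvImJ, DBA/2J, NZO/HlLtJ and NOD/ShiLtJ are classical laboratory strains. Each strain has 13 libraries, from 3 mice per mark and 1 input, which the authors combined into 1 map that gives each 200-bp bin of the genome 1 of 14 chromatin states. A strain is therefore 1 value, every SD below is over the 9 strains, and differences between strains cannot be set against the spread between mice.

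Clustered protocadherins are cell-surface adhesion proteins best known from neurons, where each cell uses its own small choice of them and so carries a surface identity that neurites of the same cell recognise. Each alpha and gamma gene has a large variable first exon with a promoter of its own, spliced to exons that all genes of that array share, whereas each beta gene is a single large exon. The last genes of the alpha and gamma arrays, called c-type, are regulated apart from the others and are used more constantly. Promoter choice is known to involve CTCF, cohesin and DNA methylation.

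State numbers are used here only as names, since the marks behind each state are not given in the sources used here. Reference genes give a point of comparison. The starts of 8 hepatocyte markers, among them Alb, Apoa1 and Ttr, held states 1 to 3 in all strains, in 89.6% of their bins on average, and no bin of state 13. None of 6 neuron markers, where clustered protocadherins are known to act, had a bin of states 1 to 3 in any strain, and their mean share of state 13 was 61.4%. No marker of endothelium (3 genes), Kupffer cells and leukocytes (3), bile duct (2) or stellate cells (3) had states 1 to 3 in all strains, and 2, 2, 1 and 0 of them had a bin in at least 1 strain. The 39 Hox genes, developmental regulators, had 78.8% ± 3.12 of their bins in state 13 and 17.9% ± 3.38 in states 10 to 12 (SD, n = 9). State 14 was the most widespread state, with 76.6% ± 1.47 of autosomal bins, and state 13 held 11.1% ± 1.36. Chromosome X had 85.8% ± 4.49 of its bins in state 13. The sequencing depth behind the maps is unknown.

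State 13 was the leading state of the protocadherin genes in hepatocytes. Alpha and gamma genes were measured in the 3 kb around the start of the variable first exon, and beta genes over their whole span. The mean share of state 13 over the 57 genes was 56.2% in WSB/EiJ, the lowest strain, 67.6% at the median and 84.8% in DBA/2J, the highest (70.5% ± 10.8, SD, n = 9). In 3-kb windows around the start, the scale used for all comparisons with other genes, the share was 75.1% ± 9.15 for the protocadherins and 15.3% ± 0.683 for all protein-coding genes. The difference was 59.9 points ± 9.67, from 47.4 points in WSB/EiJ to 72.4 points in DBA/2J, and above 0 in 9 of 9 strains. Against genes of chromosome 18 alone it was 56.3 points ± 8.57.

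At least 50% of the bins were in state 13 in all 9 strains at 27 of the 57 genes, 7 alpha, 3 beta and 17 gamma, against 7.29% of all protein-coding genes. At least 50% of the bins were in state 14 in all strains at 1 gene, Pcdhb9, against 20.3% of all genes. A further 24 genes, 5 alpha, 18 beta and 1 gamma, were mostly in state 13 in some strains and mostly in state 14 in others. This pattern was found at 12.8% of all genes and at 451 of 1110 olfactory receptor genes. States 1 to 3, those of the hepatocyte markers, were present in at least 1 strain at 59.5% of all genes and in all strains at 48.5%. Among the protocadherins they appeared at 1 gene, Pcdhgc3, and at none in all strains. States 10 to 12 were present in at least 1 strain at 43 protocadherins, against 20.9% of all genes, and in all strains at 10, against 7.54%.

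**Figure D1:**
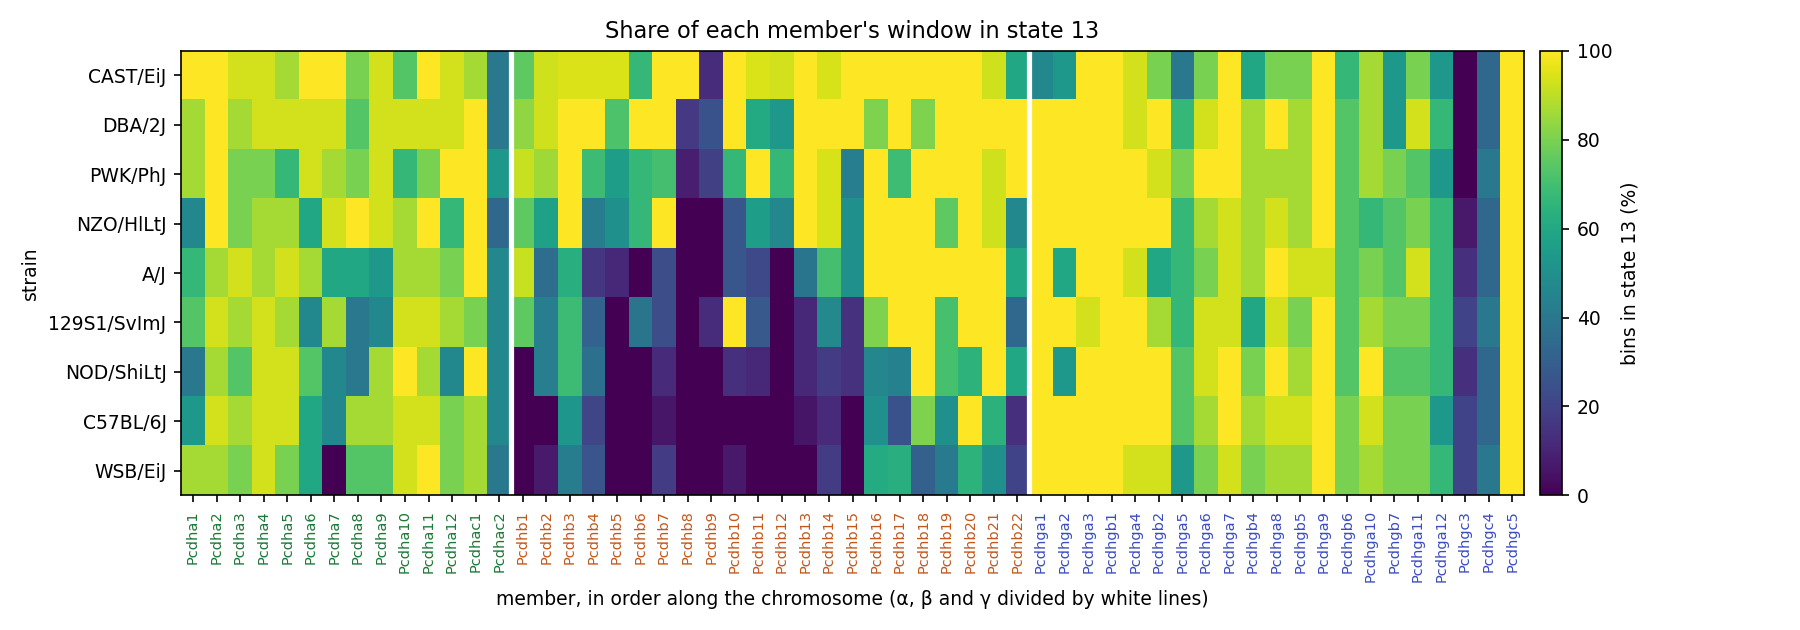
Percentage of 200-bp bins in state 13 (colour, 0 to 100%) for each of the 57 clustered protocadherin genes (columns, in order along the chromosome) in 9 strains (rows, ordered by the mean over beta genes). Gamma genes other than Pcdhgc3 and Pcdhgc4 are bright in nearly all strains. Pcdhb4 to Pcdhb15 run from bright in CAST/EiJ to dark in C57BL/6J and WSB/EiJ, apart from Pcdhb9, which is dark in all strains (at most 25%).

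In the 3 kb around their starts, alpha genes were mostly in state 13 in every strain. Their mean share was 72.4% in NOD/ShiLtJ, 78.6% at the median and 88.6% in CAST/EiJ (79.8% ± 5.89, SD, n = 9). The remainder was state 14 (11.5% ± 8.72) and states 10 to 12 (8.62% ± 4.06). Over the span of the whole array the share was lower (59.8% ± 14.2). There it was 44.9% in C57BL/6J, 45.5% in WSB/EiJ, 45.6% in 129S1/SvImJ and 48.4% in NOD/ShiLtJ. The other strains had 63.2% to 81.8%. Many single genes, though not all, varied more between strains than the mean over the windows. Pcdha1, the first gene of the array (chr18:36930285-37187657), had 40.0% of its window in state 13 in NOD/ShiLtJ, 73.3% at the median strain and 100% in CAST/EiJ. Pcdha7 ranged from 0% in WSB/EiJ, where all of its window was in state 14, through 46.7% in C57BL/6J and NOD/ShiLtJ to 100% in CAST/EiJ. Pcdha8 had 40.0% in 129S1/SvImJ and NOD/ShiLtJ and 100% in NZO/HlLtJ. At the other end, Pcdha2 and Pcdha11 had between 80% and 100% in all strains, with means of 94.1% ± 6.19 and 92.6% ± 7.03. The order of the strains thus differed between neighbouring alpha genes.

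Beta genes differed most between strains. The mean share of state 13 was 89.3% in CAST/EiJ, 84.8% in DBA/2J, 77.2% in PWK/PhJ and 67.2% in NZO/HlLtJ. It was 50.4% in A/J, 49.0% in 129S1/SvImJ, 32.4% in NOD/ShiLtJ, 21.8% in C57BL/6J and 20.4% in WSB/EiJ (54.7% ± 26.4, SD, n = 9). State 14 took up nearly all of the difference, from 7.31% in CAST/EiJ to 78.2% in C57BL/6J. Of the 22 beta genes, 21 were at least 50% in state 13 in CAST/EiJ and 4 in WSB/EiJ, and 10 lay wholly in state 14 in C57BL/6J, where CAST/EiJ, DBA/2J and PWK/PhJ had none. Autosomal state 13 did not follow this order throughout. It was highest in WSB/EiJ, at 13.1%, and lowest in C57BL/6J, at 9.40%, with 9.44% in DBA/2J. On chromosome 18 it was highest in A/J, at 17.4%, and lowest in C57BL/6J, at 8.88%. CAST/EiJ had 13.1% there and WSB/EiJ 11.8%. The 4 strains highest at beta genes were also the 4 highest at alpha genes, and 2 of them were among the 4 highest at gamma genes and 1 of them on the autosomes.

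**Figure D2:**
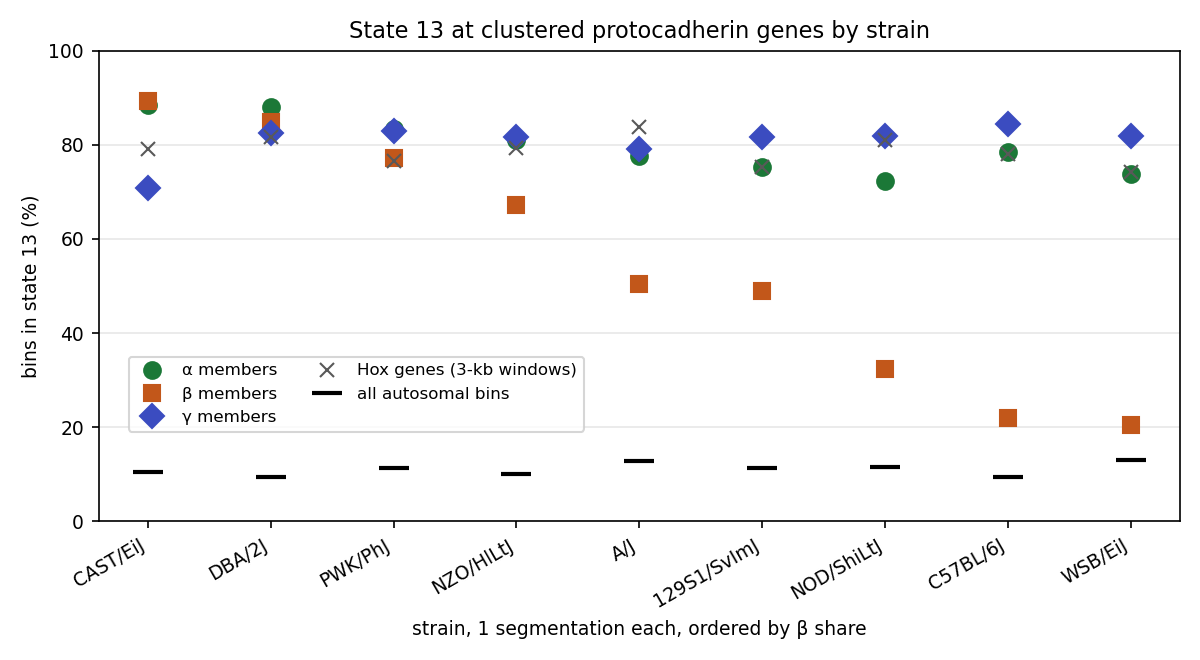
Percentage of bins in state 13 (y axis) in each of 9 strains (x axis, ordered by the beta share), for the means over alpha, beta and gamma protocadherins, over Hox genes and over all autosomal bins; each point is 1 strain's map and has no error bar. Beta genes fall from 89.3% in CAST/EiJ to 20.4% in WSB/EiJ while the other sets stay within narrower ranges.

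The strain difference was uneven along the beta array. Pcdhb4 to Pcdhb15, a block delimited after the values were seen, had 3.69% of bins in state 13 in C57BL/6J, 5.69% in WSB/EiJ and 9.67% in NOD/ShiLtJ, against 87.5% in CAST/EiJ (38.5% ± 32.2, SD, n = 9). Pcdhb16 to Pcdhb21 were higher, from 51.9% in WSB/EiJ to 100% in A/J (84.1% ± 17.8). Pcdhb1, the first gene (chr18:37264998-37267454), had no bin of state 13 in C57BL/6J, NOD/ShiLtJ and WSB/EiJ and between 75% and 91.7% in the other 6 strains, with nothing between. Pcdhb13 was at 100% in CAST/EiJ, DBA/2J, NZO/HlLtJ and PWK/PhJ and at 38.9% or less in the other 5. Pcdhb7 was at 100% in CAST/EiJ, DBA/2J and NZO/HlLtJ, at 70.6% in PWK/PhJ and at 23.5% or less elsewhere. Pcdhb10 was divided another way, with 100% in 129S1/SvImJ, CAST/EiJ and DBA/2J, 66.7% in PWK/PhJ and at most 26.7% in the others.

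A few beta genes stood at the ends of the range. Pcdhb9 was the gene lowest in state 13, with 0% in 5 strains and at most 25%, in DBA/2J (mean 7.64% ± 9.77, SD, n = 9), and was otherwise in state 14. Its neighbour Pcdhb8 lay wholly in state 13 in CAST/EiJ and had at most 16.7% in the other 8 strains. Pcdhb12 ranged from 0% in 5 strains to 93.3% in CAST/EiJ. Pcdhb20 was the highest, at 64.7% in NOD/ShiLtJ and WSB/EiJ and 100% in the other 7 strains (92.2% ± 15.6). Pcdhb18 was at 30.8% in WSB/EiJ and at 80.8% or more elsewhere, and Pcdhb22, the last gene, ranged from 13.3% in C57BL/6J to 100% in DBA/2J and PWK/PhJ.

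Gamma genes were the most alike between strains. Their mean share of state 13 was 70.8% in CAST/EiJ, 81.9% at the median and 84.4% in C57BL/6J (80.7% ± 3.99, SD, n = 9), and the other 8 strains lay within 79.0% to 84.4%. State 14 held 1.59% ± 1.97 of their bins and states 10 to 12 held 16.7% ± 2.49. In 8 strains 19 of the 21 genes were at least 50% in state 13, and in CAST/EiJ 17 were. Pcdhga1, the first gene (chr18:37661775-37841870), had 46.7% in CAST/EiJ and 100% in the other 8 strains. Pcdhga5, named after its values were seen, had 40.0% in CAST/EiJ and 53.3% to 80% elsewhere, with the remainder in states 10 to 12. Pcdhgb1 and Pcdhgc5 were in state 13 in every bin of every strain, as were 1.89% of all protein-coding genes, and Pcdhga3 and Pcdhga9 each missed this by 1 bin, in 129S1/SvImJ and in A/J.

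In the windows of each array, the share of state 13 was higher in alpha than in beta genes by 25.1 points ± 21.4. This held in 8 of 9 strains, CAST/EiJ being the exception at -0.78 points. The share was higher in gamma than in beta genes by 26.01 points ± 28.6 and in 7 of 9 strains. The exceptions were CAST/EiJ with -18.6 points and DBA/2J with -2.28 points. Alpha and gamma genes differed by 0.90 points ± 8.47, less than the spread over strains. The differences from beta genes depend on the window. Alpha and gamma windows end 1500 bp after the start, whereas beta spans run through the exon. With 3 kb around the start for beta genes too, the differences were 13.1 points ± 17.2 and 13.97 points ± 23.9. Each was then below 0 in 4 of 9 strains and smaller than the SD. Over the spans of the arrays, state 13 held 59.8% ± 14.2 of alpha, 59.0% ± 20.5 of beta and 66.2% ± 4.93 of gamma bins. With windows reaching from 0.5 kb before to 2.5 kb after alpha starts, the alpha difference was 8.55 points ± 14.6.

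State 13 was not spread evenly around the starts. Among the genes other than the c-type, it covered 97.1% ± 2.17 of the 2 kb before alpha starts, 80.1% ± 14.99 before beta starts and 98.1% ± 1.55 before gamma starts. In the first 2 kb after the start it covered 62.1% ± 17.4, 52.2% ± 27.8 and 78.8% ± 6.79. The share was higher before than after the start in 9 of 9 strains for each array, by 35.0 points ± 17.0 in alpha, 27.8 points ± 13.4 in beta and 19.3 points ± 5.49 in gamma genes. What took its place differed. On average it was mainly state 14 after alpha and beta starts, with 31.5% ± 22.1 and 45.2% ± 28.8. After gamma starts it was mainly states 10 to 12, with 18.4% ± 4.07. Alpha genes in CAST/EiJ went the other way, with 0% in state 14 and 9.17% in states 10 to 12. So did those in PWK/PhJ, with 2.5% and 19.2%. States 10 to 12 were concentrated at the start itself. There they held 46.3% ± 7.86 of the gamma genes at 0.2 kb, 30.6% ± 24.3 of the alpha genes at 0 kb and 14.1% ± 11.5 of the beta genes at 0 kb.

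**Figure D3:**
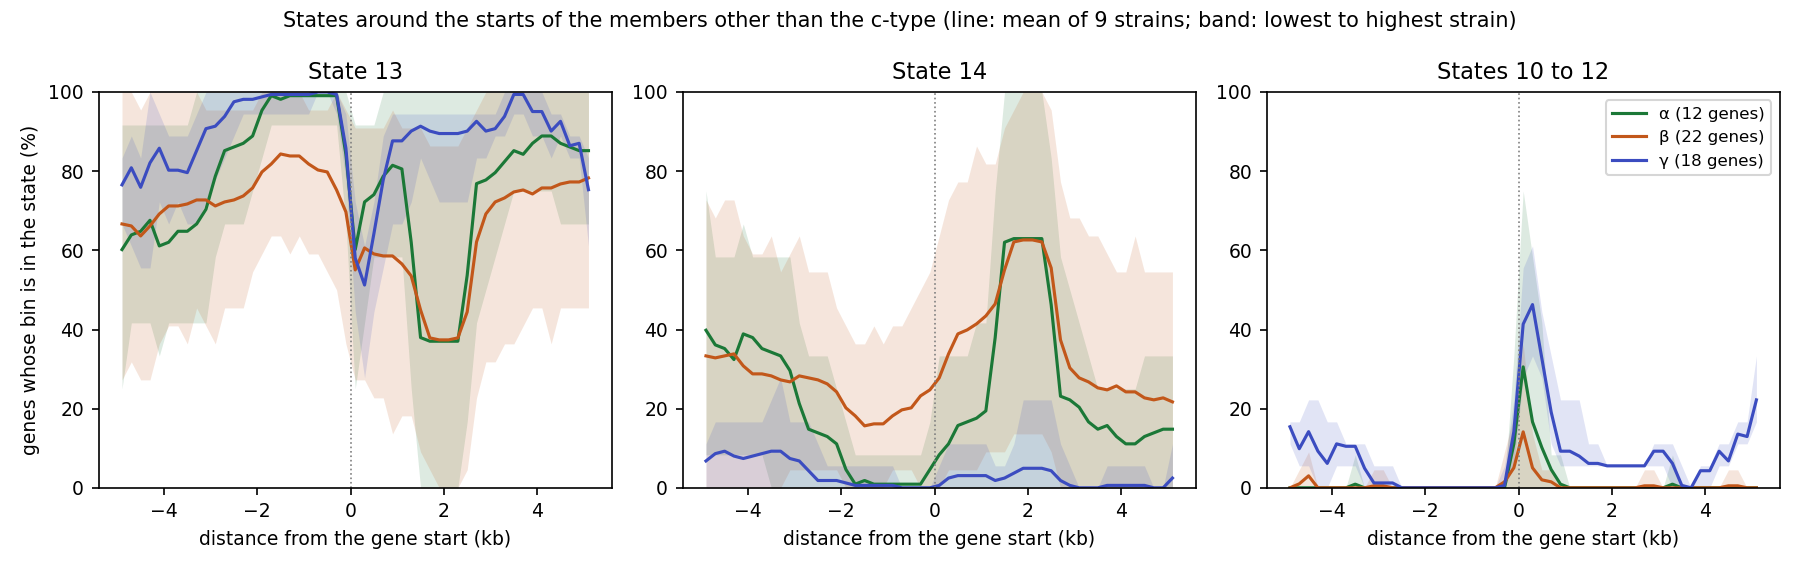
Percentage of genes whose bin is in state 13, state 14 or states 10 to 12 (3 panels) against distance from the gene start in kb, for 12 alpha, 22 beta and 18 gamma genes; lines are means over 9 strains and bands run from the lowest to the highest strain. State 13 is high before the starts, states 10 to 12 peak at the start, and state 14 rises to 63.0% of alpha and 62.6% of beta genes inside the exon.

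Within the alpha and beta exons, a stretch of fixed position was in state 14 at nearly all genes in some strains and at few or none in others. From 1.6 to 2.4 kb after the start, a stretch chosen after the profile was seen, all 12 alpha genes were in state 14 throughout in 129S1/SvImJ, A/J and C57BL/6J, and all 12 were in state 13 throughout in CAST/EiJ. The other strains had state 14 throughout at 11 alpha genes in NOD/ShiLtJ, 9 in WSB/EiJ, 6 in NZO/HlLtJ, 5 in DBA/2J and 1 in PWK/PhJ. At the 22 beta genes the same stretch was in state 14 throughout at 21 genes in C57BL/6J and WSB/EiJ, 20 in NOD/ShiLtJ, 15 in 129S1/SvImJ and A/J, 12 in NZO/HlLtJ, 8 in PWK/PhJ, 7 in DBA/2J and 3 in CAST/EiJ. At the 18 gamma genes the number was between 0 and 2. The exons of these arrays resemble one another in sequence. How reads that match several of them were placed, and whether all strains were aligned to 1 reference, is not given in the sources used here, and their part in these values was not tested. Without the bins from 1.2 to 2.6 kb after the start, the share of state 13 over all 57 genes was 74.2% ± 9.44. The mean difference between 2 strains was 24.1% of bins. Alpha and gamma windows end 1500 bp after the start, so the stretch lies outside them and this alternative acts mainly on beta genes. These means over all genes therefore cannot show how much the stretch matters. In the same alternative gamma genes exceeded beta genes by 16.7 points ± 26.5, against 26.01 with all bins, and alpha genes exceeded them by 20.5 points ± 23.2, each below 0 in 3 of 9 strains.

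States 10 to 12 were uneven among the gamma genes that are not c-type. The first 6 genes along the array, Pcdhga1 to Pcdhgb2, had means between 0% and 4.44% of their bins in these states. The next 12, Pcdhga5 to Pcdhga12, ranged from 0.74% at Pcdhga9 and 2.96% at Pcdhga7 to 37.8% at Pcdhga12, so that the ranges of the genes overlap. This division was read from the values and is a description. Of the 10 protocadherins with these states in all strains, 7 are among those 12, namely Pcdhga5, Pcdhgb4, Pcdhgb5, Pcdhgb6, Pcdhgb7, Pcdhga11 and Pcdhga12, and the other 3 are c-type genes. Pcdhga12, the lowest in state 13 among the gamma genes that are not c-type, had 53.3% to 66.7% in state 13 (62.2% ± 6.67, SD, n = 9) and a mean of 37.8% in states 10 to 12.

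The 5 c-type genes had less state 13 than the other alpha and gamma genes, 56.6% ± 2.32 against 84.3% ± 2.96, and more of states 10 to 12, 37.5% ± 4.59 against 9.46% ± 2.78. The difference in state 13 was -27.8 points ± 4.10 and below 0 in 9 of 9 strains, and with other windows it lay between -15.7 and -37.4 points. The mean joins unlike genes. Pcdhac1 (93.3% ± 8.16) and Pcdhgc5 (100% in all strains) were in state 13 like most of their arrays, and the difference came from Pcdhac2, Pcdhgc3 and Pcdhgc4.

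Pcdhac2, the last alpha gene (chr18:37143678-37187663), had 33.3% of its window in state 13 in NZO/HlLtJ, 46.7% at the median and 53.3% in PWK/PhJ, and the remaining 56.3% on average was in states 10 to 12. Pcdhgc4 (chr18:37815079-37841873) varied least of the 3, with 33.3% to 40.0% in state 13 and a mean of 64.4% in states 10 to 12, in a block centred on the start in every strain. Pcdhgc3 (chr18:37806410-37841873) had 0% in state 13 in CAST/EiJ, DBA/2J and PWK/PhJ and at most 20% in the others, with a mean of 61.5% in states 10 to 12. It was the one protocadherin with state 1, the state of 2 of its 15 bins in C57BL/6J and of 2 in PWK/PhJ. State 8 held 6 bins in CAST/EiJ, 4 in PWK/PhJ, 3 in DBA/2J and 2 in C57BL/6J, and state 5 held 3 bins in NOD/ShiLtJ and 3 in NZO/HlLtJ. In 129S1/SvImJ, A/J and WSB/EiJ no bin of the Pcdhgc3 window was in states 1 to 9. In such bulk samples a state present in some of the cells cannot be told apart from a weaker mark in all of them.

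**Figure D4:**
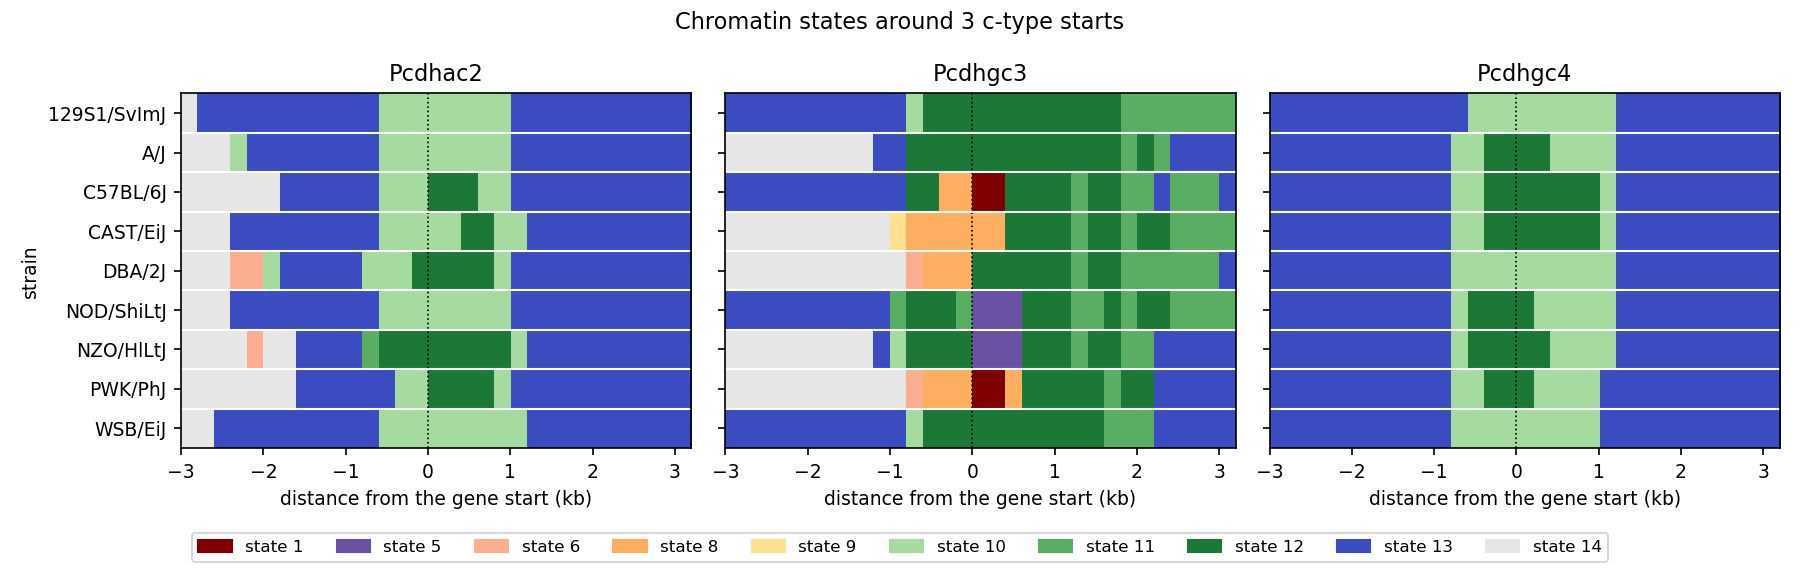
Chromatin state of each 200-bp bin (colour) against distance from the gene start in kb, for Pcdhac2, Pcdhgc3 and Pcdhgc4 in 9 strains (rows). States 10 to 12 are centred on the starts of Pcdhac2 and Pcdhgc4 in all strains, while at the Pcdhgc3 start the bin is in state 1 in C57BL/6J and PWK/PhJ, state 5 in NOD/ShiLtJ and NZO/HlLtJ, state 8 in CAST/EiJ and state 12 in the other 4 strains; state 8 lies before the start in 4 strains.

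Differences between strains were also measured as the percentage of bins whose state differed between 2 strains, averaged over the 36 pairs. The mean over the 57 genes was 25.05% in the windows of each array. In 3-kb windows the median was 22.5% for alpha, 40.4% for beta and 11.9% for gamma genes, against 20.2% for all protein-coding genes. Of the 22 beta genes, 13 lay above the 75th percentile of all genes (31.9%) and 3 below the 25th percentile (10.4%). Of the 21 gamma genes, 10 lay below the 25th percentile and 1 above the 75th, Pcdhgc3 with 48.3%. Pcdhb1 had the highest value in its own window, 56.7%, followed by Pcdhb13 with 52.8%, Pcdhb7 with 50.98%, Pcdhb2 with 50.2% and Pcdhb10 with 50%. In the 3-kb window Pcdhb7 had 53.9%, Pcdhb1 45.6% and Pcdhb2 27.2%, so the order of these genes depends on the window. Over all beta windows together, CAST/EiJ and DBA/2J differed at 16.3% of bins and C57BL/6J and WSB/EiJ at 16.6%, whereas CAST/EiJ and WSB/EiJ differed at 70.0%. The same pairs differed at 15.9%, 13.8% and 17.9% of autosomal bins. With states 13 and 14 counted as 1 state, the mean over the 57 genes was 6.91%, so that most differing bins were exchanges between these states.

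**Figure D5:**
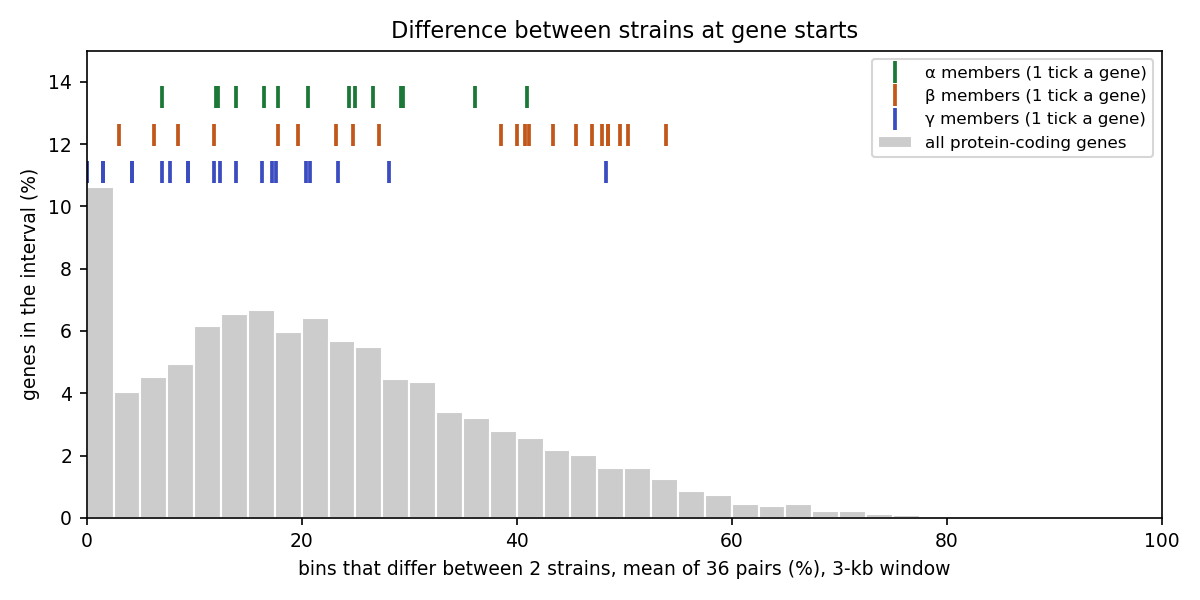
Percentage of bins that differ between 2 strains, mean of 36 pairs (x axis), in 3-kb windows around gene starts: grey bars give the percentage of all 21631 protein-coding genes in each interval (y axis), and each tick above them is 1 protocadherin. Beta ticks gather right of the all-gene median of 20.2% and gamma ticks left of it.

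State 13 extended between the genes but not into the 100 kb to the right of the locus. It held 57.2% ± 10.8 of the bins of the whole locus, 14.8% ± 6.94 of the 100 kb to its left and 0% of the 100 kb to its right, where 39.5% of bins were in states 1 to 9. Bins in state 13 in all 9 strains made up 50.7% of the gamma array, 22.8% of the alpha array and 18.4% of the beta array. The gamma array held an unbroken run of states 10 to 13 of 66.2 to 70.0 kb in every strain. Within the locus, states 1 to 9 formed 15 segments, of which 2 were present in all strains. A segment of state 6 at chr18:37138601-37141600 began at -5077 bp from the Pcdhac2 start, that is, before it, and a segment at chr18:37637401-37645800 lay between the beta and gamma arrays and overlapped Taf7, a general transcription factor subunit, whose start had 37.0% of its bins in states 1 to 3. It also reached Slc25a2, a mitochondrial carrier, whose own window was mainly in state 14 (88.4%) with no bin of states 1 to 3. Of the others, 7 were present in 1 strain, and a segment in states 4, 5 and 7 at chr18:37824601-37827400, after the Pcdhgc5 start, was present in 7 strains.

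Other genes of the system were compared in the same 3-kb windows. Of 20 regulators of protocadherin choice and silencing, 18 had states 1 to 3 in at least 1 strain and 16 in all strains, among them Ctcf, the insulator protein, with 77.0% of its bins in these states, and Smchd1, a silencing protein, with 67.4%. The windows of the DNA methyltransferases Dnmt1 and Dnmt3a were 100% and 99.3% in state 14, with no bin of states 1 to 3, and the span end used may not be the start used in liver. Of 16 signalling partners, 12 had states 1 to 3 in at least 1 strain and 10 in all strains, beside 59.5% and 48.5% of all protein-coding genes. They ranged from Wasf2 of the WAVE complex with 98.5% of its bins in these states to Abi2 of the same complex and Axin1 with none. Fyn, a kinase, had 43.7% in states 10 to 12 and 24.4% in state 13. The 12 protocadherins outside the clusters were mixed: states 10 to 12 occurred in at least 1 strain at 9, Pcdh1 and Pcdh12 had states 1 to 3 in all strains with no state 13, Pcdh15 lay wholly in state 13, and Pcdh7 and Pcdh10 were 97.8% and 94.8% in states 10 to 12. Of 18 other cadherin genes, 7 had states 1 to 3 in at least 1 strain and 2 in all strains, and their mean share of state 13 was 34.2%. Other tandem families had other shares of state 13. The 9 Ugt1a genes are a liver detoxification family built on the same variable-exon plan. They had no bin in state 13 and 90.1% ± 7.87 in states 1 to 3. The 1110 olfactory receptor genes had 19.8% ± 4.72 in state 13 and a mean of 79.4% in state 14. Of these, 451 were mostly in state 13 in some strains and mostly in state 14 in others, beside 24 of the 57 clustered protocadherins. Of the 33 genes within 500 kb of the locus, 28 had states 1 to 3 in at least 1 strain, beside the 59.5% of all genes, and the median gene had no state 13. The highest were Gm37013 (45.2%), Gm38666 (37.4%) and Gm38667 (34.1%), whose spans lie in the locus.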

How the data were processed

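The authors deposited 1 chromatin state map per strain, in mm10 coordinates per the submitters' processing notes. Per the file headers each map belongs to the hepatocytes of 1 strain, and its column 4 holds a state number, which is a category and not a count, signal or score. The notes name FastQC 0.11.5 and MACS 1.4.2 without a role; the segmentation tool, the aligner and the reads behind each map are not given in the sources used here, so no counting error is given. Gene spans came from RefSeq for GRCm38, the same build as mm10. Strand was known for 17274 genes that are not members; for 4300 genes both span ends were pooled, and a span's end may not be the start used in liver. A bin belonged to a window if its centre lay inside. All 57 genes are measured, with no filter on low values.

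All comparisons are descriptions over 9 strains, with no p-value; Dixon's gap was used to list strains that lie far from the others. Inbred strains are related to each other, so the strain values are not fully separate. The members, gene lists, state groups and measures were chosen with earlier results of these data known. Genes named are the c-type genes and the first and last of each array. Also named are those 3 highest and 3 lowest in state 13 per array, and the 5 that differed most between strains. Other genes, such as Pcdhga5, Pcdhga7 and Pcdhga9, were named after their values were seen. Alternatives covered windows, thresholds, single-bin segments, matching rules, gene sets and each strain left out. The maps were handled with numpy 2.4.6 and pandas 2.3.3 in Python 3.11.15 and drawn with matplotlib 3.10.9, and the code was tested on simulated maps.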

Additional observations from a re-analysis of the deposited data

Results flagged for a closer look

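Of 39 sets of 9 strain values that had a range, 7 had 1 strain far from the other 8 by the gap that Dixon's test uses. Chance gives such a gap in about 1 in 20 sets, a rate that does not apply here, since most of the single genes were named for their values and the sets overlap, so the list is a description. CAST/EiJ lay apart in 4 of them: in the share of state 13 over gamma genes (70.8%, next strain 79.0%), in the mean difference of gamma windows from the other strains (18.8%, next 14.3%), at Pcdhb8 (100%, next 16.7%) and at Pcdhga1 (46.7%, all others 100%). PWK/PhJ lay apart in the mean difference of alpha windows from the other strains (26.8%, next 23.3%) and also had the highest autosomal value of that measure, 19.3%. WSB/EiJ lay apart at Pcdhb18 (30.8%, next 80.8%). Pcdhga3 in 129S1/SvImJ (93.3%, all others 100%) is a difference of 1 bin, as at Pcdhga9 in A/J, which was not among the sets.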

How the results depend on the processing

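No result changed direction under any alternative run. The c-type difference in state 13 was -37.4 points with 2-kb windows, -18 with 5-kb windows, -15.7 with windows from 0.5 kb before to 2.5 kb after the start and, in an alternative added after seeing the data, -32.5 without the bins from 1.2 to 2.6 kb after the start. The difference between strains over the 57 genes was 29.2% with windows from 0.5 kb before to 2.5 kb after the start, 20.01% when a match within 1 bin counted and 6.91% with states 13 and 14 merged. The difference between the protocadherins and all genes was 49.5 points with that asymmetric window. At a threshold of 80%, 13 genes were in state 13 in all strains, against 26 in the windows of each array at 50%, and 0 were in state 14, against 1; at 30%, 39 genes were in state 13. Genes with states 1 to 3 numbered 0 when at least 5 strains or all 9 were required.

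With each strain left out in turn, the mean share of state 13 was 68.7% to 72.3%, the share outside state 14 was 77.7% to 81.4%, and 26 to 29 genes were at least 50% in state 13. Genes in state 14 numbered 1 to 2, with 2 without CAST/EiJ, and 1 gene had states 1 to 3 throughout. The difference between strains was 23.7% to 25.8%, alpha minus beta 21.2 to 28.3 points, gamma minus beta 21.4 to 31.6, c-type minus others -28.4 to -26.8, and protocadherins minus all genes 58.3 to 61.4. Of the other alternatives, 56 values moved by less than the SD between strains or, for counts, by at most 1.5 times. The cause of each shift was not tested. No paired analysis was possible because the maps carry no replicate numbers, only strains. The unknown depth and the single map per strain limit all values.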
